A study of Mus musculus with 2 samples.

Results

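The genes described here are 10 genes around the TGF-β family, measured in bone marrow-derived macrophages (BMDMs) with and without IL-4. They were Tgfb1, Tgfb2, Tgfb3, Inhba, Inhbb, Bmp2, Gdf3, Ltbp1, Bmp1 and Tgfbi, taken from a fixed list of names out of 32448 gene symbols or identifiers on the array. All probes whose RefSeq accession belongs to one of these genes were used, which gave 14 probes. The first 7 genes encode family ligands or their subunits, whereas Ltbp1 encodes a binding protein of latent TGF-β. Bmp1 encodes a protease that is not a BMP ligand despite its name, and Tgfbi a matrix protein named for its induction by TGF-β. Macrophages were grown from bone marrow with M-CSF and hybridised as 1 untreated sample and 1 sample treated with IL-4 for 18 h. Per the study's methods the donors were Crif1 f/f males aged 8 weeks, bred on C57BL/6, so both samples carried the floxed Crif1 allele, and a Cre is not named for them. The IL-4 dose used for these arrays and the number of mice behind each sample are not given in the sources used here. There was 1 array per condition and therefore no replicate check, no p-value is given, and every difference compares these 2 samples.

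TGF-β ligands are secreted dimers that bind type II and type I serine/threonine kinase receptors and signal through SMAD proteins. TGF-β isoforms and activins act mainly through SMAD2 and SMAD3, and BMPs mainly through SMAD1, SMAD5 and SMAD9. TGF-β leaves the cell bound to its own propeptide and often to a latent TGF-β binding protein, and it must be released before it can signal. In macrophages TGF-β1 is known as a regulator of inflammation and wound repair, and activin A, the dimer of the Inhba product, as a secreted cytokine. IL-4 signals through STAT6 and drives macrophages toward the M2 state.

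All 14 probes were well above background on both arrays, none of their 32 spots was saturated and none carried an outlier flag. Well above background is a flag that the scanner software sets for each spot. Intensities are background-subtracted values of the scanner output, and a log2 difference is IL-4 minus untreated after subtraction of the 75th percentile of each array, which was 9.84 without and 9.94 with IL-4. A gene with several probes was summarised by its brightest probe. A spot needed an intensity of at least 29.2 (untreated) or 27.9 (IL-4) to carry that flag.

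**Figure D1:**
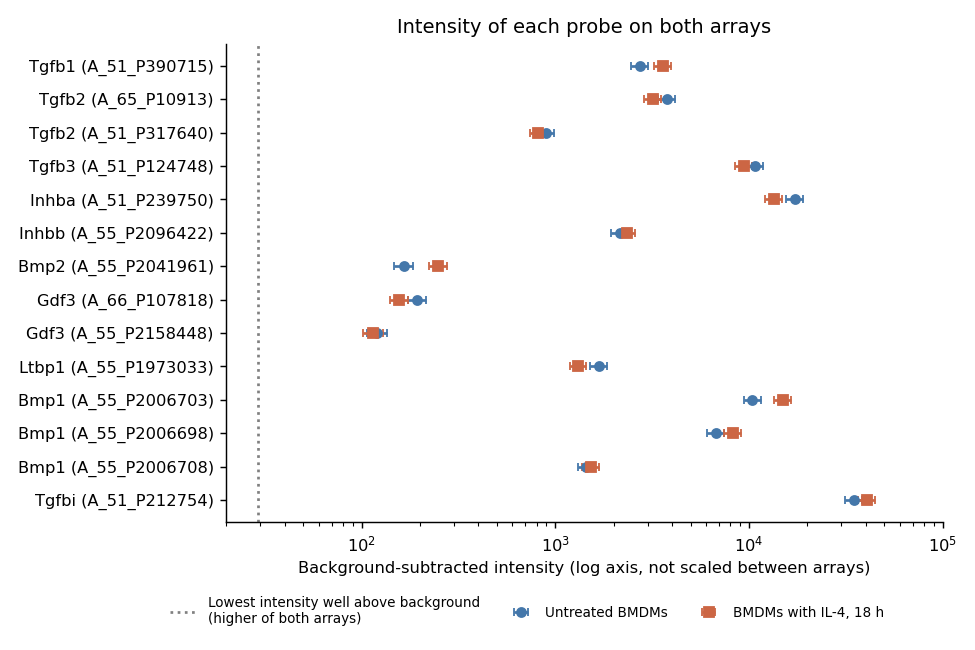
Background-subtracted intensity (log axis, not scaled between arrays) of the 14 probes of the 10 genes on the untreated array (circles) and the IL-4 array (squares), with bars for the error estimated by the scanner software. Every probe lies to the right of the dotted line at an intensity of 29.2, and the 2 points of each probe lie close together. Levels of different probes are not comparable.

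The sample labels were checked against marker genes. The M2 markers Arg1, Retnla, Chil3 and Mrc1 were all more than 2-fold higher with IL-4. All 5 measured macrophage markers, Adgre1, Itgam, Csf1r, Mertk and Fcgr1, carried the flag on both arrays, and 2 of them, Mertk and Fcgr1, were at least 2-fold lower after IL-4. Fibroblast markers were also present. All 6 of them, Col1a1, Col1a2, Col3a1, Pdgfra, Dcn and Lum, carried it as well. Their summed intensity, most of it from Col1a2, was 324152 in untreated and 317279 in IL-4-treated BMDMs. Their median log2 difference was -0.06, and none was 2-fold changed. Tgfb2, Tgfb3, Inhba, Ltbp1 and Bmp1 are also made by fibroblasts, and the part of fibroblast RNA in their signals was not tested. The study's methods describe the cultures as nearly pure by staining for CD11b and F4/80, macrophage surface proteins. All 5 measured neutrophil markers (summed intensity 36602 and 35676) and 4 of 5 megakaryocyte and platelet markers (43260 and 36679) carried the flag on both arrays. In the platelet list Pf4 made up most of the sum and the median log2 difference was -0.45. Itga2b was past 2-fold at -1.44, at dim intensities of 97.2 untreated and 38.3 after IL-4. Gp9 was dim as well, at 49.96 untreated and 54.08 after IL-4, and Gp1ba lacked the flag on both arrays. Ppbp was brighter than these, at 534 untreated and 389 after IL-4. On both arrays 1 of 6 lymphocyte, 3 of 6 eosinophil and mast cell, 3 of 5 dendritic cell and 3 of 4 osteoclast markers carried the flag. Of these lists, Cpa3 of the mast cells was past 2-fold, at least 3.51-fold lower. Platelets are rich in TGF-β1, and the part of these cells in the Tgfb1 signal was not tested. In bulk RNA, fewer cells of a type and less RNA per cell cannot be told apart.

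The 3 TGF-β isoforms did not share a direction. Tgfb1, the isoform best known in immune cells, had an intensity of 2730 in untreated and 3610 in IL-4-treated BMDMs, a log2 difference of 0.30, or 1.23-fold. Tgfb2 had intensities of 3773 and 3179 and a log2 difference of -0.35, 1.27-fold lower. Tgfb3 had intensities of 10782 and 9409 and a log2 difference of -0.30, 1.23-fold lower. The array thus gave a higher signal for Tgfb1 and a lower one for the other isoforms after IL-4, each by less than 2-fold. These values depended on the scaling. With median scaling they were 0.52 for Tgfb1, -0.13 for Tgfb2 and -0.08 for Tgfb3, and with spike-in scaling 0.59, -0.06 and -0.01, the last of which is under the spot SD of Tgfb3 given next.

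Tgfb1 and Tgfb3 were each printed in 10 spots per array, which shows how precisely 1 hybridisation reads them. For Tgfb1 the spots ranged from 2655 through a median of 2693 to 2845 without IL-4 and from 2969 through a median of 3612 to 3908 with IL-4. The difference was above 0 in 10 of 10 spots, with a mean of 0.30 ± 0.096 (SD, n = 10 spots). One IL-4 spot stood apart from the rest, at 2969 where the next lowest was 3560, and without it the difference was 0.33 ± 0.046 (SD, n = 9 spots). On the scaled log2 scale this spot lay within the untreated range of 1.54 to 1.64, while the other IL-4 spots began at 1.86. For Tgfb3 the spots ranged from 10304 through 10678 to 11369 untreated and from 9222 through 9360 to 9770 after IL-4. Here the difference was below 0 in 10 of 10 spots, at -0.30 ± 0.041 (SD, n = 10 spots), and the scaled signals of both arrays did not overlap. Both differences exceeded the spread between spots, which is technical and does not include the spread between cultures.

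**Figure D2:**
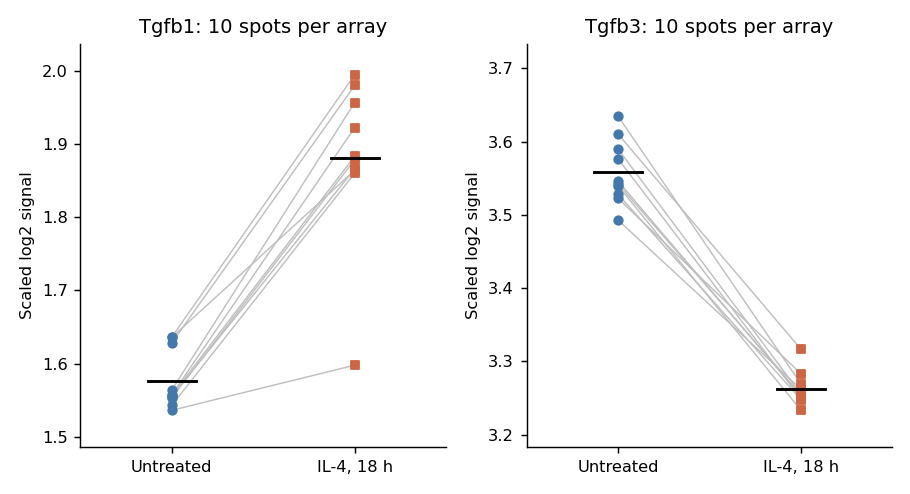
Scaled log2 signal of the 10 spots of the Tgfb1 probe and of the Tgfb3 probe on the untreated array (circles) and the IL-4 array (squares). Grey lines join spots at the same array position and black bars are means. For Tgfb1 the mean goes from 1.58 to 1.88 with 1 IL-4 spot within the untreated range of 1.54 to 1.64, and for Tgfb3 it goes from 3.56 to 3.26.

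Tgfb2 was covered by a pair of probes, each printed in 1 spot. The dimmer one had intensities of 893 and 818 and a log2 difference of -0.23, in the same direction as the brighter one at -0.35. For probes in 10 spots with a signal within 1 log2 unit of theirs, the median SD of the difference between spots was 0.053 for the brighter and 0.061 for the dimmer probe.

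Promoters of Tgfb1 and Tgfb2 are shown because these isoforms differed in sign here and because their promoters are built differently. Each window runs from 250 bases before to 50 bases after the RefSeq start on build GRCm38.p6, 5′ to 3′ on the gene's strand, and both strands were searched. Capitals in Tgfb1 mark the GC box, spelled GGGCGG. In Tgfb2 they mark the letters of the TATA box, which is spelled TATAAA. These motifs were chosen after the sequences had been read.

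Tgfb1 (chr7:25686752-25687051, + strand): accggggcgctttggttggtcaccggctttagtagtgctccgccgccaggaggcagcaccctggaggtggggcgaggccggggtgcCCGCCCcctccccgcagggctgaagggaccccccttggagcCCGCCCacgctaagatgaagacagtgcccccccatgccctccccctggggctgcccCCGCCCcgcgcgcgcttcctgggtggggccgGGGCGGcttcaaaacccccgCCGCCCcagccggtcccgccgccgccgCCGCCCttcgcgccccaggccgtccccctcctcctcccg
Tgfb2 (chr1:186705940-186706239, - strand): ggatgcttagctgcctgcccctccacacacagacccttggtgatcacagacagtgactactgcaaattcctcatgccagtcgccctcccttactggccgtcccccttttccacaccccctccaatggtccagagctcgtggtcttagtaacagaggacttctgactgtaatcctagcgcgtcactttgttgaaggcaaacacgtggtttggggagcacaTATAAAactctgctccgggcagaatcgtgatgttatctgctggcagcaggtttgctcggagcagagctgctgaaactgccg

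The Tgfb1 window held 6 GC boxes and no TATA box, with a GC content of 77.0%, and the Tgfb2 window held 1 TATA box and no GC box, with a GC content of 54.3%. Over all 32851 promoter windows the median GC content was 52.7%, and 35.7% held a GC box and 13.6% a TATA box. The table had 7 windows for 6 of the genes, Inhbb, Inhba, Tgfbi and Ltbp1 besides these. The spaced palindrome bound by STAT6 was in 0 of these 7 windows, against 6.95% of all windows. The repeat bound by PPAR-RXR was in 0 of them, against 0.0396% of all windows, and the palindrome GTCTAGAC bound by SMADs was also in 0, against 0.213%. Both strands were searched, and this says only that these letters are absent from these windows.

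The activin and inhibin β subunits differed from each other. Inhba, whose product forms activin A, had an intensity of 17246 in untreated and 13506 in IL-4-treated BMDMs, a log2 difference of -0.45, 1.37-fold lower. Inhbb, whose product forms activin B, had intensities of 2155 and 2333 and a log2 difference of 0.01, or 1.01-fold. The median spot SD at similar signal was 0.045 for Inhba and 0.053 for Inhbb. In these values the Inhba difference was larger than spot error and that of Inhbb was not. This contrast depended on the scaling. With median scaling Inhba stood at -0.24 and Inhbb at 0.23, and with spike-in scaling at -0.17 and 0.30. Under those scalings both differences were larger than spot error.

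Bmp2 and Gdf3 were the dimmest of the 10 genes relative to the detection limit. Bmp2, a bone morphogenetic protein that signals through SMAD1, SMAD5 and SMAD9, had an intensity of 165 untreated and 249 after IL-4, which was 5.66 and 8.92 times the lowest signal well above background. Its log2 difference of 0.49, or 1.40-fold, was above that of the other genes here but not with the normexp background model described next. Gdf3, a family member that has been linked to macrophages and adipose tissue, had intensities of 194 and 156 at its brighter probe and 121 and 115 at its dimmer one. The log2 differences of these Gdf3 probes were -0.41 and -0.17, the same direction with a gap of more than the median spot SD at their signal of 0.11 and 0.13. Fold sizes at such dim signal depend on the background step. The normexp background model took the place of the software's subtraction. It also started from pixel medians and added an offset of 50 to each spot, and adding a constant shrinks dim log2 ratios by construction. With it the log2 difference of Bmp2 went from 0.49 to 0.23, below Bmp1 at 0.47 and Tgfb1 at 0.31. That of Gdf3 went from -0.41 to -0.46. The parts of the model and of the offset were not separated.

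The genes that hold, process or follow TGF-β also lay within 2-fold. Ltbp1, which anchors latent TGF-β in the matrix, had intensities of 1686 untreated and 1316 after IL-4, a log2 difference of -0.46, 1.37-fold lower, which is within spot error of the Inhba difference of -0.45. Tgfbi, a secreted matrix protein, had intensities of 34694 and 40568 and a log2 difference of 0.13, or 1.09-fold. Bmp1, a metalloprotease of the tolloid family that cleaves procollagens and other matrix precursors, was read by 3 probes that did not give the same value. The brightest had intensities of 10430 and 15030 and a log2 difference of 0.43, or 1.34-fold. The second, assigned to a noncoding RefSeq transcript of Bmp1, had intensities of 6784 and 8261 and a difference of 0.18. The dimmest, assigned to the same coding transcript as the brightest, had intensities of 1448 and 1530 and a difference of -0.02. These probes differ by more than their spot errors of 0.045 to 0.058, so the size for Bmp1 depends on the probe read.

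Of the 10 genes 0 reached a 2-fold difference in either direction after IL-4. Of the 17242 genes that both arrays detected, 2.11% lay 2-fold or more higher and 1.57% 2-fold or more lower. With genes detected on 1 array included, where the difference can be a bound, these shares were 2.86% and 4.47% of 19743 genes. Higher genes made up 39.0% of all genes 2-fold changed, but 59.5% with median scaling, 60.1% with quantile normalization, 52.3% with cyclic loess and 65.8% with scaling on spike-in controls. At 1.5-fold also 0 of the 10 genes were higher and 0 lower, against 4.68% and 5.60% of genes detected on both arrays. That count depended on the scaling, and the share of all genes past 1.5-fold was not counted under the other scalings. The median over genes detected on both arrays went from -0.01 to 0.20 with median scaling and to 0.27 with spike-in scaling. Bmp2 passed 1.5-fold on the higher side with cyclic loess (0.59 on the log2 scale) and without scaling (0.59), Bmp1 and Bmp2 with median scaling (0.64 and 0.70), and Tgfb1, Bmp1 and Bmp2 with spike-in scaling (0.59, 0.71 and 0.78). With 2-fold shares this low, a count of 0 among 10 genes does not set them apart.

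By sign the genes split evenly. Tgfb1, Inhbb, Bmp2, Bmp1 and Tgfbi had differences above 0 and Tgfb2, Tgfb3, Inhba, Gdf3 and Ltbp1 below 0, with a median of -0.14 where all genes detected on both arrays had -0.01. The median size without regard to sign was 0.38 for the 10 genes and 0.17 for all of these genes, but with median scaling it was 0.24 against 0.25 and with spike-in scaling 0.24 against 0.30, so the order turned with the scaling. With the 75th percentile, for Bmp2 85.9% of genes detected on both arrays had a smaller difference in size, for Ltbp1 84.2%, for Inhba 83.9%, and for Inhbb 5.02%. The scanner software estimates an error near 10% of the intensity for bright spots, and up to 11.9% for the dimmer Gdf3 probe. Carried to the log2 difference this gave 0.20 to 0.22 for the brightest probes, and 8 of the 10 genes differed by more than that, all but Inhbb and Tgfbi. With median scaling 7 genes did, with spike-in scaling 5, and with the dimmest probe of each gene 6. This error does not cover the spread between cultures, and the share of all genes that exceed it was not counted. With the 75th percentile, 61.4% of genes detected on both arrays had a difference smaller in size than the -0.23 of the dimmer Tgfb2 probe.

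**Figure D3:**
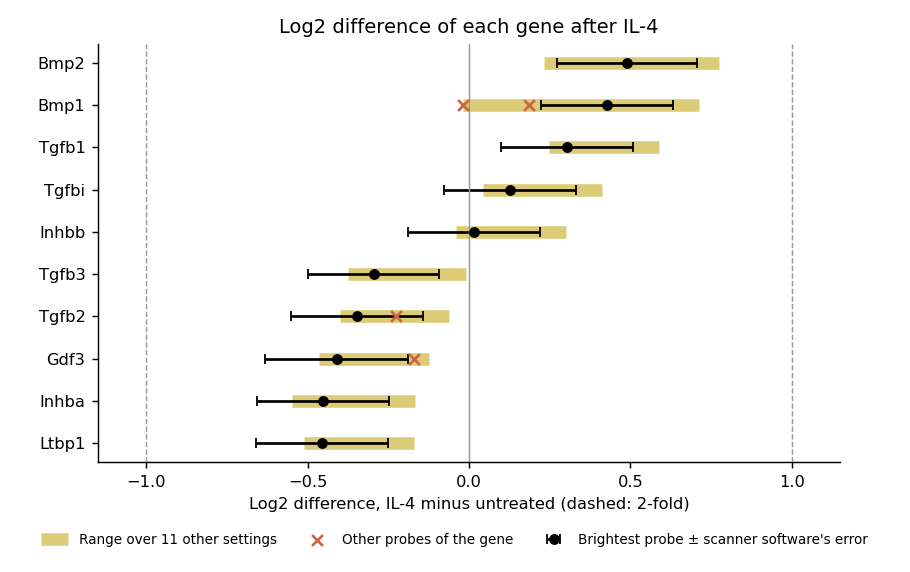
Log2 difference, IL-4 minus untreated, of the 10 genes at the brightest probe (points) with the error estimated by the scanner software (bars), the other probes of the gene (crosses) and the range over 11 other settings of scaling, background, probe choice and source (bands). All values lie between the dashed lines at 2-fold. Of the 10 genes, 8 keep their sign over the band, and Inhbb and Bmp1 reach both sides of 0. Some of the settings cannot move a gene with a single probe and no flagged spot.

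Scaling by a constant per array moves all genes together, whereas quantile normalization and cyclic loess do not. Median scaling took the median of all genes detected on both arrays from -0.01 to 0.20 and scaling on 7 spike-in controls took it to 0.27. Relative to that median, Tgfb1 was 0.32 higher and Tgfb3 0.28 lower in the values above, and a constant shift leaves those distances as they are. With spike-in scaling Tgfb3 stood at -0.01 and Tgfb2 at -0.06, so the sign of these genes is close to 0 under that scaling. The sign of Inhbb turned with quantile normalization, to -0.02, and with the percentile taken over probes detected on both arrays, to -0.04.

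Other genes of the pathway were read from lists of 104 names, of which 80 were well above background on 1 array or both. Of these, 1 lay past 2-fold on the higher side and 4 on the lower side, or 1.25% and 5.0%, near the 2.86% and 4.47% of all genes. The higher gene was Pcolce2, an enhancer of procollagen processing by Bmp1, with intensities of 780 and 1730 and a log2 difference of 1.05. The lower genes were all dim ligands. Gdf9, an oocyte growth factor, had intensities of 316 and 146 and a difference of -1.22, and Bmp6 had 61.2 and 30.3 and a difference of -1.11. The IL-4 signal of Bmp6 was near the detection limit of 27.9, and the median spot SD at similar signal was 0.24. Gdf5 and Gdf7 were well above background on the untreated array only. Gdf5 was at least 3.03-fold lower. Gdf7 was 2.69-fold lower, read from an IL-4 signal of 29.5 that was not well above background.

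In the other groups 0 genes were called at 2-fold, where the same 2.86% and 4.47% of all genes are the background. These were 14 genes of latency and activation (median -0.11 on the log2 scale), 12 extracellular antagonists (median -0.16) and 13 receptors (median -0.01). Also in these groups were 12 SMADs and their regulators (median -0.04) and 13 target genes of TGF-β or BMP signalling (median -0.09). Among the receptors, Gfral was detected on the untreated array only, at 31.7, near the limit of 29.2. Its bound of at least 1.22-fold lower rests on that dim signal. Each median was taken over the genes detected on both arrays, for which all genes had -0.01. Within latency and activation, Nrros, a protein that tethers latent TGF-β1 on myeloid cells, had a difference of 0.60 and Plau, the urokinase that activates plasminogen, one of 0.62. The target genes ran from Id3 at -0.44 and Cdkn2b at -0.43 to Pmepa1 at 0.47 and Klf10 at 0.90, and the SMADs and their regulators from Smad3 at -0.69 to Ski at 0.56. Gdf15, a stress-induced ligand of the family, had intensities of 2655 and 2728 and a difference of -0.06. Of the 26 ligands outside the 10 genes, 13 lacked the flag on both arrays, so no fold is given.

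**Figure D4:**
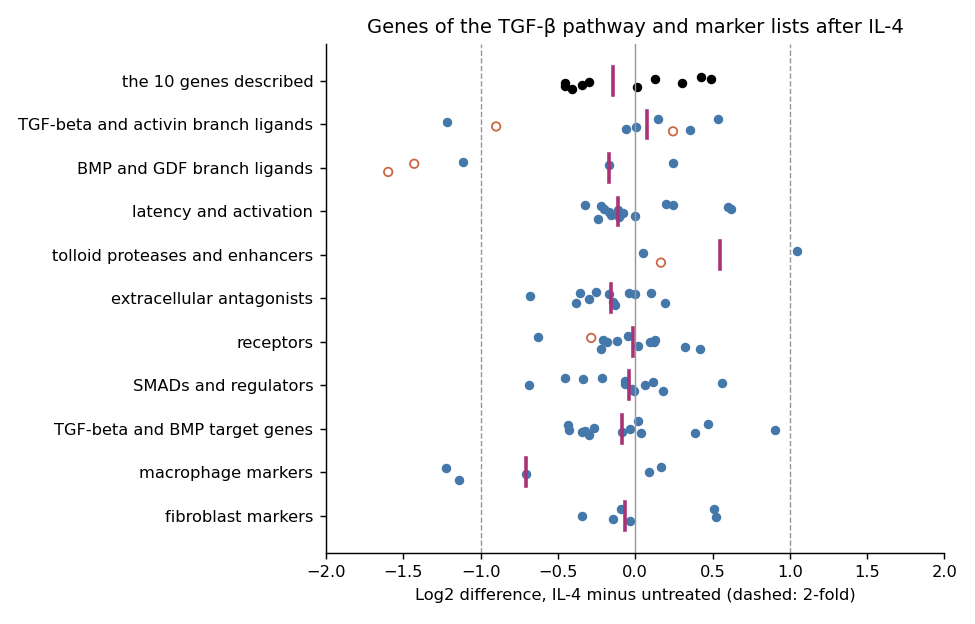
Log2 difference, IL-4 minus untreated, of each gene with a value in the 10 genes described, in 8 lists of the TGF-β pathway and in the macrophage and fibroblast markers. Filled points were detected on both arrays and vertical bars are their medians. Open points are genes detected on 1 array, where the difference can be a bound. All filled points of the latency, antagonist, receptor, SMAD and target lists lie between the dashed lines at 2-fold.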

How the data were processed

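RNA of 1 untreated and 1 IL-4-treated BMDM sample was labelled with Cy3 and run on single-colour Agilent mouse arrays designed on mm9. The authors deposited Feature Extraction 10.10.1.1 output, in which the intensity has background removed within each array and no scaling between arrays, with other flags per spot, and a table of processed log2 values without stated settings. Differences between its columns equalled those of the scanner intensity for all 14 probes within 1.89e-06 after a constant of 0.000564.

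Control and outlier-flagged spots were removed, log2 values averaged over the spots of a probe, and each array's 75th percentile (39424 probes) subtracted. RefSeq accessions matched 27229 probes to 20656 symbols (names only, GRCm38.p6), other probes keeping their identifier. A probe was detected when most of its spots were flagged well above background. For a probe detected on 1 array, a signal on the other array under the lowest detected one was raised to it. The difference was then a bound. Spot error is the median SD over 10-spot probes within 1 log2 unit (256 probes, 0.065 overall). No test was run. The genes named are all 10, the 2-fold changed genes of the pathway lists, and others chosen after their values were seen (Nrros, Plau, Id3, Cdkn2b, Pmepa1, Klf10, Smad3, Ski, Gdf15, Gfral). Genes and lists were chosen with earlier results of these data known. Counting was checked on simulated data. Settings tried were other scalings, normexp (offset 50, on pixel medians), flagged spots kept, probe choice, the processed values, dim-probe filters and a 1.5-fold cutoff. Software was Python 3.11.15 with pandas 2.3.3, and limma 3.58.1 in R 4.3.3.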

Additional observations from a re-analysis of the deposited data

How the results depend on the processing

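No paired analysis was possible because there was only 1 array for either condition, which limits the precision of every value. Normexp on mean pixel signals was planned but not run, and medians took their place. The counts of 0 of the 10 genes 2-fold higher and 0 lower held under all settings run. Of the 10 genes, 8 kept their sign under the 11 settings that give a value per gene. Several of these settings could hardly move a gene. No spot of the 10 genes was flagged, and the processed values repeat the main ones up to a constant. For the 7 genes with a single probe, probe choice changes nothing. Settings were varied singly and not in combination. The exceptions were Inhbb and, read from its dimmest probe, Bmp1 at -0.02.

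The median log2 difference of the 10 genes, -0.14, was 0.074 with median scaling, 0.15 with spike-in scaling, -0.041 without scaling and -0.20 with the 75th percentile over probes detected on both arrays. These settings shift all genes by a constant. Genes at least 2-fold higher, 564, numbered 954 with spike-in scaling, 297 with normexp, 848 in the authors' processed values, 363 with genes detected on both arrays only, 1389 with no filter and 1206 at 1.5-fold. Genes at least 2-fold lower, 883, came to 532 with quantile normalization, 564 with median scaling, 495 with spike-in scaling, 1645 in the processed values, 270 with genes detected on both arrays only, 268 with normexp, 4074 with no filter and 2163 at 1.5-fold. Filters and cutoffs move these counts by construction. The processed values were counted without the bound used for genes detected on 1 array, so that rule differs from the main counts too. The offset of 50 added with normexp also shrinks dim log2 ratios by construction, and its part in the lower counts was not tested. For quantile normalization the cause was not tested. Leaving out the lowest IL-4 spot, chosen after seeing the data, gave 0.33 for Tgfb1 and -0.29 for Tgfb3.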
